A study of Mus musculus with 12 samples.

Results

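The measurements described here are the transcriptomes of 4 wild-type (WT) primary mammary tumours from mice with the MMTV-PyMT transgene, taken at 4.5 months of age. These samples were chosen by their genotype label WT and are 4 of the 12 samples of the series. The other 8 samples, tumours of engineered knockout strains, were not used, so nothing here is compared between genotypes. Per the series' design text, the WT mice carried MMTV-Cre beside MMTV-PyMT, whereas their strain label gives only MMTV-PyMT. Both transgenes are driven by the MMTV promoter, which is active mainly in mammary epithelium. Whether each WT tumour carried Cre recombinase was not tested. Tumours went into RNAlater, a solution that preserves RNA, and QIAzol was used to isolate total RNA for Illumina libraries made by a company. The labels do not say whether the 4 tumours came from separate mice, so the spread between them measures tumours and not necessarily animals. Replicate numbers 1 to 4 follow accession order and only name a tumour.

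Polyoma virus middle T antigen is a membrane scaffold that binds Src family kinases, protein phosphatase 2A and the adaptors of the phosphoinositide 3-kinase, Ras and phospholipase C gamma pathways. Expressed in mammary epithelium, it gives multifocal carcinomas whose cells keep luminal features such as keratins 8 and 18, and whose stroma holds macrophages, fibroblasts and vessels. A whole tumour was sequenced in each case, so a gene's level mixes all of these cells, and fewer cells of a type cannot be told apart from less RNA per cell.

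Total counts were 327.1, 484.0, 413.8 and 475.7 M in WT replicates 1 to 4 (M, 1000000 counts), and 33159 to 37289 genes had at least 1 count in a tumour. WT replicate 2 stood apart from the others. It held a skeletal muscle signal that was nearly absent elsewhere, described below, and the highest share of mitochondrially encoded RNA. Across 17235 genes, which are not independent replicates, the Pearson correlation of log2 levels was 0.904 to 0.935 between WT replicate 2 and the other tumours and 0.953 to 0.968 among WT replicates 1, 3 and 4. Results that rest on WT replicate 2 are therefore given with and without it. Sex-linked genes were those of female tissue in every tumour. Xist, the RNA of the inactive X chromosome, was at 147 to 540 CPM (counts per 1000000 counts, scaled between tumours), while the Y-linked genes Ddx3y and Eif2s3y had no count and Kdm5d and Uty did not exceed 0.00764 CPM.

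Levels of different genes were compared in FPKM, which divides a gene's count by its length and by the library total. Of 56860 genes in the table, 15707 (27.6%) had a mean of at least 1 FPKM over the 4 tumours, 655 (1.15%) reached 100 FPKM and 58 reached 1000 FPKM. Among 20635 protein-coding genes, 11843 reached 1 FPKM and 395 reached 100 FPKM. The 100 most abundant genes of a tumour took 41.0, 50.1, 44.9 and 44.9% of all its FPKM. Pseudogenes and predicted genes, told by gene type or name, together took 32.7, 32.1, 32.9 and 32.0% of FPKM in WT replicates 1 to 4. Such copies can share reads with the genes they resemble. How these reads were counted is not given in the sources used here, so this share is uncertain. Among the other protein-coding genes, mitochondrially encoded genes and ribosomal protein genes led. The 13 protein-coding mitochondrial genes took 8.01, 18.4, 12.1 and 13.1% of FPKM, and 91 ribosomal protein genes took 10.0, 8.10, 10.3 and 9.48%. Thus WT replicate 2 had the largest mitochondrial share and the smallest ribosomal share.

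The most abundant messages beyond these sets included an elongation factor, secreted mammary proteins, transferrin and ferritin, MHC class I chains and luminal keratins. Eef1a1, the elongation factor that brings aminoacyl-tRNA to the ribosome, led with 2495 ± 416 FPKM (SD, n = 4). Wfdc18, a secreted whey acidic protein family member made by mammary epithelium, followed at 1781 ± 472 FPKM (SD, n = 4). It stood at 1821, 1121, 2232 and 1949 FPKM in WT replicates 1 to 4, lowest in WT replicate 2. Lcn2, the siderophore-binding lipocalin 2, was at 1513 ± 423 FPKM and Trf, the iron carrier transferrin, at 1400 ± 629 FPKM (SD, n = 4 each). Transferrin was 2326 FPKM in WT replicate 1 against 938 to 1222 FPKM in the other tumours. The ferritin chains Ftl1 and Fth1 reached 1181 ± 224 and 662 ± 290 FPKM. Ptma, the nuclear protein prothymosin alpha, was at 1666 ± 175 FPKM, and Igfbp5, a secreted binding protein of insulin-like growth factors, at 957 ± 210 FPKM. B2m, the light chain of MHC class I, was at 1099 ± 521 FPKM, and the heavy chains H2-K1 and H2-D1 at 655 ± 266 and 636 ± 215 FPKM. Actg1, Ubb, Hsp90ab1 and Tpt1 had means of 986 to 1093 FPKM. Actin, ubiquitin, elongation factor and class I genes have close copies in the genome, and the counting of reads that match several places is not given in the sources used here, so their levels are uncertain.

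**Figure D1:**
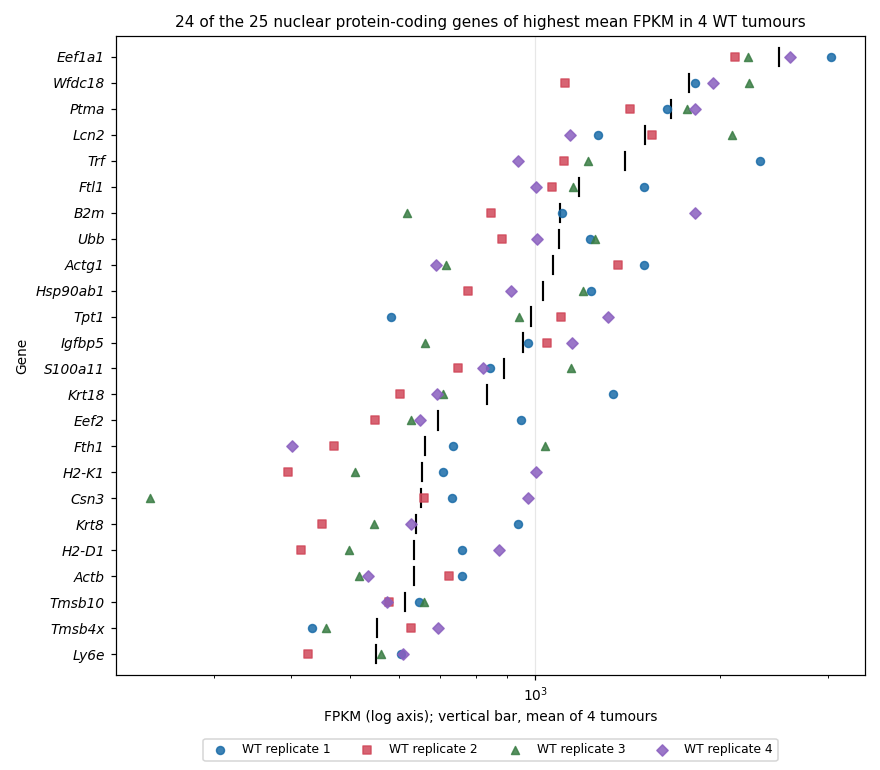
FPKM (log axis) of 24 of the 25 nuclear protein-coding genes of highest mean FPKM, ribosomal protein genes left out. Each marker is 1 WT tumour and the vertical bar is the mean of 4. Eef1a1 led at a mean of 2495 FPKM. The spread between tumours differed from gene to gene, with 1430 to 1824 FPKM for Ptma and 236 to 975 FPKM for Csn3.

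The order of these genes depended on the length used. The deposited length is longer than the main transcript for many genes, with a median ratio of 1.33 over 11114 expressed genes. With the length of the principal transcript in its place, 20 of the 25 genes remained among the first 25, and Lcn2 and Wfdc18 led at 4338 and 4170 FPKM. This alternative was chosen after the data were seen.

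Mitochondrial messages reached the highest levels of the genes named here. The ATP synthase subunits mt-Atp8 and mt-Atp6 had means of 13749 and 12666 FPKM, and the cytochrome oxidase subunit mt-Co1 12394 FPKM. Of the 13 genes, 10 were highest in WT replicate 2 and 10 lowest in WT replicate 1. For mt-Co2 the tumours stood at 2944, 12460, 8890 and 9528 FPKM, lowest in WT replicate 1. An exception was mt-Co1, which stood at 15300, 13860, 10940 and 9471 FPKM and was highest there. Noncoding genes were ranked only when typed as long noncoding RNA and not predicted, so small RNA classes were left out. Among the ranked RNAs, the nuclear RNA Malat1 led at 288 ± 125 FPKM (SD, n = 4). It was again lowest in WT replicate 1, with 115 FPKM against 284 to 396 FPKM. Plet1os came next at 177 ± 67.1 FPKM. It lies antisense to the epithelial gene Plet1, and with the handling of strand not given the reads of these genes cannot be told apart. Bc1, Snhg8 and Norad followed with means of 61.8, 50.4 and 40.6 FPKM.

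The epithelial compartment of the tumours was luminal in its keratins and junctions. All 22 luminal epithelial markers reached a mean of 1 FPKM and 7 reached 100 FPKM. Krt18 and Krt8, the paired keratins of simple epithelium, stood at 836 ± 340 and 641 ± 211 FPKM (SD, n = 4). Krt18 was 1342, 604, 708 and 692 FPKM in WT replicates 1 to 4 and Krt8 938, 450, 548 and 628 FPKM. Both were highest in WT replicate 1 and lowest in WT replicate 2, the tumour with the muscle signal. The tight junction gene Cldn3 had 410 ± 95.8 FPKM and the adhesion molecule Epcam 257 ± 25.9 FPKM. Epcam varied little, with 271, 218, 266 and 272 FPKM. Of the luminal list, 14 members were highest in WT replicate 1 and 14 were lowest in WT replicate 2. Only Krt19, Foxa1 and Tfap2b differed at least 4-fold between the highest and the lowest tumour, which is 13.6% of the list's 22 measured members, against 6.75% of all 17235 measured genes. A gene was counted as measured when its mean was at least 1 CPM.

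Markers of luminal progenitors and of alveolar cells, which make milk, were as prominent. Besides Lcn2, the list was led by Plet1 at 295 ± 114 FPKM, the milk fat globule protein Mfge8 at 291 ± 95.1 FPKM and lactoferrin, Ltf, at 273 ± 60.5 FPKM (SD, n = 4). Folr1, a folate receptor, was at 62.3, 18.5, 42.0 and 73.4 FPKM in WT replicates 1 to 4. Tnfaip2, a gene induced by tumour necrosis factor, was low by comparison at 2.84 ± 1.88 FPKM and highest in WT replicate 2 with 5.16 FPKM.

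Hormone-sensing markers were low. Of 15 members, 7 reached 1 FPKM and none reached 100 FPKM, and the list's median was 0.588 FPKM against 51.4 FPKM for the luminal epithelial markers. The estrogen receptor gene Esr1 was at 0.588 ± 0.0392 FPKM and the progesterone receptor gene Pgr at 0.447 ± 0.15 FPKM (SD, n = 4). This pair was chosen for mention after its values were seen. The highest members were Ly6a, a surface antigen that other cell types also carry, at 43.1 ± 4.46 FPKM, the coregulator Cited1 at 14.2 ± 12.5 FPKM and the prolactin receptor Prlr at 8.24 ± 2.61 FPKM. Cited1 stood at 32.7, 5.89, 9.25 and 8.73 FPKM, and the pioneer factor Foxa1 at 10.7, 2.03, 3.99 and 2.97 FPKM. Both were highest in WT replicate 1, in which 8 of the 12 measured members of the list were highest.

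Basal and myoepithelial markers were present in every tumour, with 15 of 18 members at a mean of at least 1 FPKM. Myoepithelial cells line the ducts and contract, and they express smooth muscle proteins with keratins 5 and 14. Acta2, smooth muscle actin, stood at 299, 139, 116 and 400 FPKM in WT replicates 1 to 4, with a mean of 238 ± 135 FPKM (SD, n = 4). Tagln, an actin-binding protein of smooth muscle, stood at 194, 117, 96.6 and 351 FPKM. The contractile genes Cnn1 and Myh11 spanned more, with 61.4, 21.8, 22.2 and 114 FPKM and with 28.0, 12.3, 10.0 and 63.7 FPKM. In each of these 4 genes, WT replicates 1 and 4 lay above WT replicates 2 and 3. Krt14 had 66.1, 60.4, 35.5 and 92.6 FPKM, lowest in WT replicate 3. The order was not that of every member, as 4, 2, 1 and 11 members were highest in WT replicates 1 to 4. The list score, the mean log2 CPM of its members, was 6.14, 5.50, 5.16 and 6.37, and 11 of the 18 members were lowest in WT replicate 3. Smooth muscle of vessels carries some of the same genes. The list of pericyte and smooth muscle markers, which also holds Acta2, Tagln and Myh11, had scores of 5.21, 5.30, 4.45 and 5.10, with 4, 5, 0 and 3 of its 12 members highest in WT replicates 1 to 4. Its member of largest spread, Des, stood at 4.37, 176, 8.64 and 5.93 CPM, which raises the score of WT replicate 2. Scores without Des were not computed. The list's other members had no common order. Mcam stood at 17.8, 13.6, 15.6 and 12.7 FPKM, whereas the pericyte proteoglycan gene Cspg4, chosen for mention after its values were seen, had 22.4, 11.5, 6.91 and 20.6 CPM, above in WT replicates 1 and 4 as for Acta2. The part of vessels in the levels of Acta2 and Tagln was not tested.

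**Figure D2:**
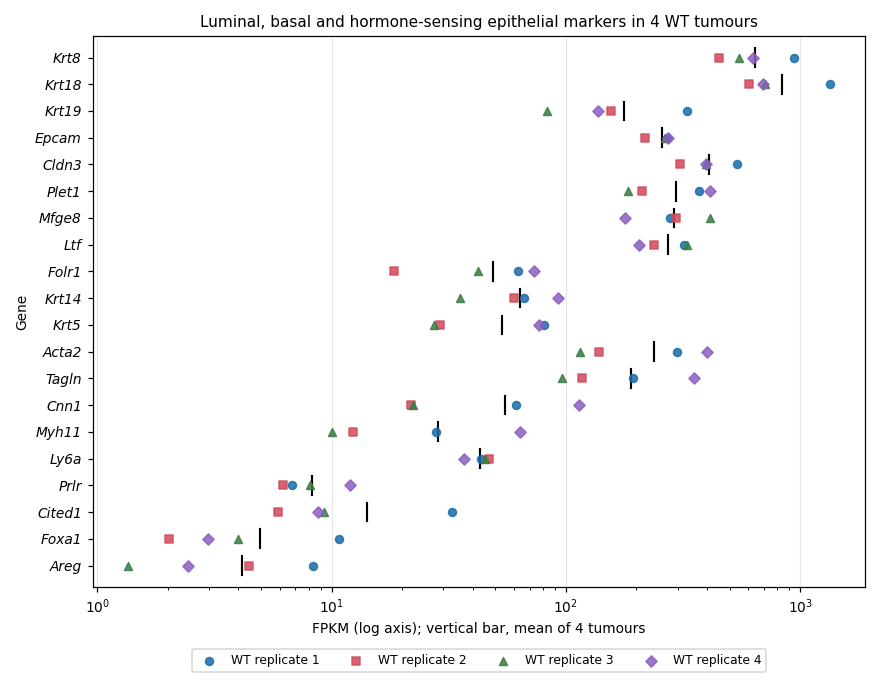
FPKM (log axis) of luminal (Krt8 to Folr1), basal and myoepithelial (Krt14 to Myh11) and hormone-sensing (Ly6a to Areg) markers, 1 marker per WT tumour with the mean of 4 as a bar. Luminal keratins lay highest, and Acta2, Tagln, Cnn1 and Myh11 parted WT replicates 1 and 4 from WT replicates 2 and 3.

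Keratins as a family spanned 1.31 log2 units in their score, but 0.723 without WT replicate 3 and 0.704 on the log2(FPKM + 1) scale. Krt19 stood at 329, 157, 83.3 and 137 FPKM. Krt16, a keratin of stressed and hyperproliferative epidermis, was low and differed 17.7-fold, with 3.69, 0.470, 0.422 and 7.74 FPKM. Among epithelial junction genes, none of 23 members differed at least 4-fold, where 2.73% of all genes at 10 to 100 CPM and 6.75% of all measured genes did. The list's score spanned 0.39, or 0.169 without WT replicate 1. Ctnnb1, which links cadherins to the cytoskeleton and acts in Wnt signalling, was at 85.2 ± 13.3 FPKM and the claudin Cldn7 at 83.5 ± 19.6 FPKM (SD, n = 4).

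Milk protein genes were uneven both between genes and between tumours. Of 22 genes of the list, 19 reached 1 FPKM and 5 reached 100 FPKM, and 8 of 21 measured members (38.1%, against 6.75% of all genes) differed at least 4-fold. Csn3, kappa-casein, was abundant at 733, 660, 236 and 975 FPKM in WT replicates 1 to 4, lowest in WT replicate 3. The beta-casein gene Csn2, a main casein of lactation, was far lower at 9.36, 0.942, 0.969 and 0.607 FPKM. It was 16.7-fold higher in WT replicate 1 than in WT replicate 4. The alpha-casein gene Csn1s1 had another order, with 6.82, 6.71, 15.7 and 1.76 FPKM, highest in WT replicate 3. Spp1, the secreted matrix protein osteopontin, was at 362, 526, 445 and 139 FPKM, lowest in WT replicate 4. Of the milk fat and casein genes, no tumour was highest throughout, as 8, 4, 5 and 4 measured members were highest in WT replicates 1 to 4. Among mucins and secreted defence proteins, clusterin (Clu) was at 108 ± 31.3 FPKM, and Bpifb1, a secreted airway and salivary protein, stood at 10.4, 1.74, 14.4 and 0.697 FPKM, a 21.4-fold difference.

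The genes that middle T antigen acts through were expressed in every tumour, and their list score spanned 0.19 log2 units, or 0.115 with libraries scaled by their totals alone and 0.0905 on the log2(FPKM + 1) scale. All 20 middle T effectors in the table reached 1 FPKM. None differed at least 4-fold, a count that is near the share of 2.73% among all genes at 10 to 100 CPM (6.75% of all measured genes). The 14-3-3 protein gene Ywhaz led at 97.4 ± 14.1 FPKM, the phosphatase 2A scaffold Ppp2r1a had 80.0 ± 13.4 FPKM, Akt1 61.8 ± 10.9 FPKM and the adaptor Grb2 36.3 ± 6.07 FPKM (SD, n = 4). The member of largest spread was Pik3ca, the catalytic subunit of phosphoinositide 3-kinase, with 30.9, 55.9, 58.2 and 59.0 CPM. It was lowest in WT replicate 1, and the other tumours lay close together. The polyoma transgene itself was not analysed here. Among the ErbB receptors, Erbb2 was at 18.5 ± 3.68 FPKM, Erbb3 at 13.8 ± 2.53 FPKM and Egfr at 4.93 ± 1.18 FPKM, and of their ligands amphiregulin (Areg) differed 6.48-fold, with 10.9, 5.00, 1.68 and 2.92 CPM.

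Cyclins and inhibitors of cyclin-dependent kinases had scores of 5.39, 5.51, 5.46 and 5.41 in WT replicates 1 to 4, the narrowest of the 61 lists at a range of 0.11. The range was 0.0497 without WT replicate 2, 0.0695 with DESeq2 size factors, 0.327 with library totals alone and 0.263 on the log2(FPKM + 1) scale, and in the last 2 settings the middle T effectors were narrower. Cdk4 was at 101 ± 7.31 FPKM and its partner cyclin D1, Ccnd1, at 66.8 ± 13.6 FPKM (SD, n = 4). Cdkn2a, which encodes the tumour suppressors p16 and p19ARF, was the exception and differed 4.63-fold, with 3.58, 16.6, 9.25 and 7.70 CPM. Mitosis and spindle genes spanned 0.27 and DNA replication genes 0.46, an order that turned with library totals alone, at 0.410 and 0.248. The DNA replication range was 0.241 without WT replicate 1 and 0.240 on the log2(FPKM + 1) scale. No member of either list of 25 was at least 4-fold apart, against 2.73% of all genes at 10 to 100 CPM and 6.75% of all measured genes. Ube2c, which acts with the anaphase-promoting complex, stood at 76.5, 221, 63.2 and 65.3 CPM, and the survivin gene Birc5 at 57.7, 112, 59.7 and 45.5 CPM. These 2 genes were highest in WT replicate 2, while the replication helicase subunit Mcm5 was lowest there, with 141, 53.4, 71.1 and 75.8 CPM. Pcna, the clamp of DNA polymerase, was at 49.0 ± 5.20 FPKM. Immediate early genes of the AP-1 family were led by Jund at 213 ± 57.6 FPKM, and 13 of 20 were highest in WT replicate 1 and 15 lowest in WT replicate 3.

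Glycolysis genes were highest in WT replicate 1, while other metabolic lists had other orders. Of 15 glycolysis genes, 14 were highest in WT replicate 1, and the list's score was 8.65, 7.94, 7.79 and 7.64. Without WT replicate 1 it spanned 0.296 in place of 1.01. The enolase gene Eno1 stood at 458, 193, 245 and 183 FPKM and the aldolase gene Aldoa at 453, 385, 299 and 210 FPKM. The lactate exporter gene Slc16a3 and the glucose transporter gene Slc2a1 differed most among measured members, with 36.6, 36.9, 7.17 and 7.66 CPM and with 148, 81.4, 36.8 and 59.6 CPM. The hypoxia response list had scores of 5.82, 5.70, 4.72 and 4.97, so that WT replicates 1 and 2 lay above WT replicates 3 and 4. Its highest tumour was WT replicate 1, or WT replicate 2 when libraries were scaled by their totals alone. Vegfa, the main growth factor of vessels, was 71.2, 170, 19.1 and 23.5 CPM, and the vasodilator gene Adm 13.1, 22.5, 1.75 and 4.07 CPM. In both, WT replicates 1 and 2 lay above WT replicates 3 and 4. Car9, a carbonic anhydrase induced by low oxygen, did not share that order, with 71.4, 76.3, 66.1 and 24.3 CPM.

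Of 20 fatty acid synthesis genes, 19 reached 1 FPKM, 2 reached 100 FPKM and 2 (10.0%, against 6.75% of all genes) differed at least 4-fold. Thrsp, a lipogenic gene of the lactating gland, was at 115 ± 63.4 FPKM and the regulator Srebf1 at 111 ± 36.4 FPKM (SD, n = 4). Thrsp stood at 103, 35.7, 134 and 188 FPKM, lowest in WT replicate 2. Of 25 glutathione and antioxidant genes, all reached 1 FPKM and 15 were highest in WT replicate 1. Gpx4 and Gpx1, which reduce lipid and hydrogen peroxides, had 324 ± 95.0 and 262 ± 68.1 FPKM. Gpx2, a glutathione peroxidase known from the gut epithelium, was the member that varied most, with 75.9, 1.12, 5.61 and 5.80 CPM. Cytosolic ribosomal proteins and translation factors had score ranges of 0.43 and 0.33, which were 0.152 and 0.108 without WT replicate 2, 0.289 and 0.186 with library totals alone, and 0.289 and 0.183 on the log2(FPKM + 1) scale. No member of 30 and 20 was at least 4-fold apart, near the 1.56% found among all genes at 100 to 1000 CPM (6.75% of all measured genes). The elongation factor Eef2 and the initiation factor Eif5a had 694 ± 175 and 400 ± 117 FPKM.

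Most MHC class I and interferon response genes were highest in WT replicate 4. All 16 class I presentation genes reached 1 FPKM, 10 of them were highest in WT replicate 4, and the score was 7.81, 7.34, 7.54 and 8.10. B2m stood at 1107, 848, 620 and 1820 FPKM. The class Ib gene H2-Q7 differed 5.08-fold, with 451, 197, 172 and 876 CPM, though the near-identical H2-Q genes can share reads. Of 26 interferon response genes, 18 were highest in WT replicate 4 and 23 lowest in WT replicate 3. Oas2, a sensor of double-stranded RNA, had 31.2, 47.9, 17.9 and 94.3 CPM and Ifit3 69.0, 78.4, 61.6 and 158 CPM. MHC class II genes were also lowest in WT replicate 3, where all 9 measured members had their lowest level. Cd74, the invariant chain, stood at 318, 260, 117 and 297 FPKM and H2-Ab1 at 91.4, 78.2, 28.9 and 70.1 FPKM.

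Macrophage genes were the best represented among leukocyte markers. Of 25 members, 22 reached 1 FPKM. Among 24 measured members, 15 were highest in WT replicate 2 and 13 were lowest in WT replicate 3. The list's score was 3.86, 4.24, 3.49 and 3.91 in WT replicates 1 to 4. Apoe, a lipid carrier also made by other cells, was at 422 ± 143 FPKM, and the complement C1q genes C1qa and C1qb, made mainly by macrophages, at 109 ± 17.7 and 95.6 ± 17.4 FPKM (SD, n = 4). C1qa hardly varied, at 108, 131, 87.3 and 110 FPKM. Arg1, the arginine-degrading arginase 1, was as abundant on average at 147 ± 123 FPKM but differed 14.0-fold. It stood at 163, 23.7, 90.6 and 310 FPKM, lowest in WT replicate 2 and highest in WT replicate 4, an order that C1qa and C1qb did not share. Lyve1, a marker of some resident macrophages and of lymphatic vessels, was at 0.943, 8.59, 2.64 and 3.52 CPM, highest in WT replicate 2.

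Lymphocyte and neutrophil markers were low. Of 20 T cell markers, 4 reached 1 FPKM, and Tcf7 and Foxp3, the transcription factor of regulatory T cells, led at 5.00 ± 0.917 and 3.31 ± 0.314 FPKM (SD, n = 4). Foxp3 was steady at 14.9, 15.8, 14.6 and 15.1 CPM, whereas Cd8a stood at 1.07, 1.23, 1.10 and 3.25 CPM, highest in WT replicate 4. In this Foxp3 was unlike its list, which had a median level of 0.534 FPKM. Measured members of the list differed by a median of 2.26-fold, against 1.09-fold for Foxp3. Whether the Foxp3 reads came from regulatory T cells was not tested. Immunoglobulin genes led the B and plasma cell list, and Igkc stood at 72.8, 194, 88.4 and 60.7 FPKM and Ighm at 32.7, 72.3, 24.3 and 12.3 FPKM. The joining chain gene Jchain, made by plasma cells, had the same top tumour, with 2.10, 7.07, 2.80 and 2.02 FPKM. Of 13 neutrophil markers, 3 reached 1 FPKM. S100a8 was lowest in WT replicate 1, with 2.42 CPM against 8.14 to 10.8 CPM.

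Stromal genes were led by the matrix protein Sparc at 313 ± 57.5 FPKM (SD, n = 4). Of 20 fibroblast markers, 18 reached 1 FPKM, 17 of 19 measured members were highest in WT replicate 2 and 12 were lowest in WT replicate 1. Col1a1, a chain of fibrillar collagen I, stood at 71.6, 194, 81.3 and 53.2 FPKM and Col3a1 at 36.0, 116, 34.7 and 34.9 FPKM. In both, WT replicate 2 lay above all others. The basement membrane chain Col4a1 had another order, with 90.2, 58.0, 35.5 and 59.7 FPKM, highest in WT replicate 1. The fibroblast genes Dpt and Lrrc15 differed most, with 7.21, 40.1, 12.9 and 11.9 CPM and with 6.30, 36.6, 26.4 and 11.5 CPM. Without WT replicate 2, the fibroblast score spanned 0.29 in place of 1.20. All 21 blood endothelial markers were measured and none differed at least 4-fold, against 6.75% of all measured genes. Plvap, a component of the diaphragms of fenestrated vessels, had 43.4, 44.3, 21.8 and 24.0 CPM, and the junction gene Cdh5 34.8, 25.4, 11.4 and 13.9 CPM. As with Vegfa, WT replicates 1 and 2 lay above the other tumours, and 15 of the 21 endothelial genes were lowest in WT replicate 3.

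Over all measured genes, the tumours differed by a median of 1.69-fold between the highest and the lowest. At least 4-fold differences were seen in 1164 of 17235 genes (6.75%), at least 2-fold in 5473 (31.8%) and at least 8-fold in 379 (2.20%). In these ratios a level below that of 3 counts was set to that of 3 counts, which touched 11 of the 1164 genes and makes their ratios lower bounds. The common biological coefficient of variation, edgeR's estimate of the spread between tumours beyond counting noise, was 0.375. Low genes varied more. The share of at least 4-fold genes was 14.3% at 1 to 10 CPM, 2.73% at 10 to 100 CPM, 1.56% at 100 to 1000 CPM and 2.13% above. No test was run on these differences, since the labels set no contrast among the 4 tumours.

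The variation was unevenly spread over the tumours. WT replicate 2 was the highest in 610 of the 1164 genes (3.54% of all measured genes), followed by WT replicate 1 with 213 (1.24%), WT replicate 3 with 183 (1.06%) and WT replicate 4 with 158 (0.917%). WT replicate 1 was the lowest in 478. Genes that lay at least 4-fold above all other tumours numbered 174 in WT replicate 2 and 16, 16 and 20 in WT replicates 1, 3 and 4. Without WT replicate 2, 539 of 16920 genes (3.19%) differed at least 4-fold, with WT replicates 1, 3 and 4 highest in 201, 167 and 171 of them. Of the 61 gene lists, 19 had a score that spanned more than 1 log2 unit over the 4 tumours, and 9 did so without WT replicate 2.

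**Figure D3:**
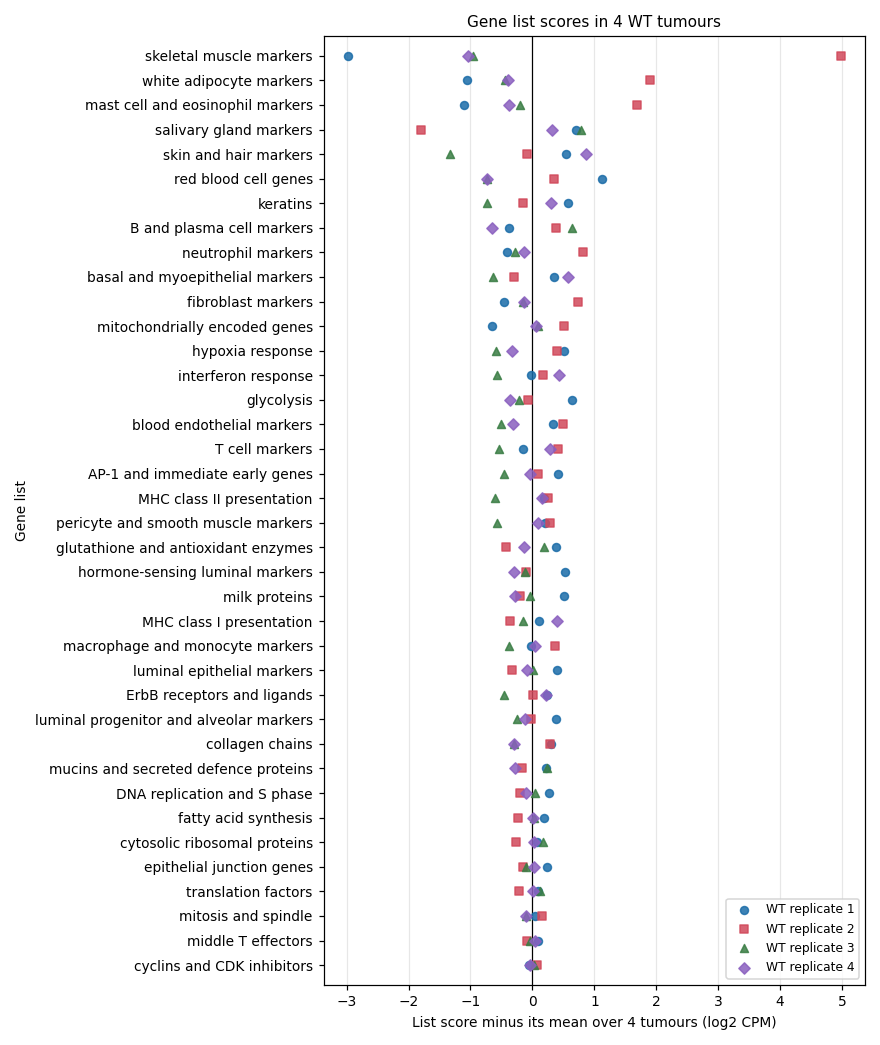
Scores of 38 gene lists (mean log2 CPM of the members) in each WT tumour, minus the list's mean over 4 tumours, sorted by range. Skeletal muscle markers spanned 7.95 log2 units with WT replicate 2 on top, and cyclins and CDK inhibitors spanned 0.11.

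Skeletal muscle genes gave the widest range of all lists. Their score was -0.28, 7.67, 1.74 and 1.65 in WT replicates 1 to 4, and all 17 measured members were highest in WT replicate 2. At least 4-fold differences were found in 16 of 17 (94.1%, against 6.75% of all genes), with a median of 322-fold. Acta1, the actin of skeletal muscle fibres, stood at 3.09, 701, 10.8 and 9.48 CPM. Myh4, the myosin heavy chain of fast glycolytic fibres, had 1.51, 873, 8.82 and 4.87 CPM, and Ckm, muscle creatine kinase, 1.11, 356, 5.15 and 3.90 CPM. Myh7, the myosin heavy chain of slow fibres and heart, was nearly restricted to WT replicate 2, with 0.0589, 92.0, 0.0766 and 0.0415 CPM. Genes of fast fibres, of slow fibres and, at 54.7 CPM for Myh8, of perinatal fibres were therefore all high in the same tumour. Mb, the oxygen-binding myoglobin, was the exception below 4-fold, with 22.9, 55.2, 19.6 and 19.4 CPM. It was chosen for mention after its values were seen. In FPKM, Acta1 reached 494 in WT replicate 2, between the keratins Krt18 and Krt8 of that tumour, and the whole list took 0.346% of its FPKM against 0.00369 to 0.00753% elsewhere.

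The upstream sequences of 3 of these genes are shown because the genes moved together across the tumours. Each run is the 250 bases before the annotated transcription start, 5′ to 3′ on the gene's strand, from RefSeq (GRCm38.p6, an older build than that of the deposited tables). They lie at chr8:123894776-123895025 on the minus strand for Acta1, chr7:19410844-19411093 on the plus strand for Ckm and chr11:67237562-67237811 on the plus strand for Myh4. Capitals mark CAGCTG, an E-box of the kind bound by the MyoD family of muscle regulators, and the CArG box, a motif bound by serum response factor.
Acta1: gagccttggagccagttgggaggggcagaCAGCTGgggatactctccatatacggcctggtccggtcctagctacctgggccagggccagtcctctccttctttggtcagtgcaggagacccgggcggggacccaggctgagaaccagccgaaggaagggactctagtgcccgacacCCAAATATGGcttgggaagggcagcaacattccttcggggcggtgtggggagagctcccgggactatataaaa
Ckm: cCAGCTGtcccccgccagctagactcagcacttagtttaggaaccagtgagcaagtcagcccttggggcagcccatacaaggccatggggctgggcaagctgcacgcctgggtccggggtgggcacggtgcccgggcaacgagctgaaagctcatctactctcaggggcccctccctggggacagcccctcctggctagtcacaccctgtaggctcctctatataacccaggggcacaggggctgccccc
Myh4: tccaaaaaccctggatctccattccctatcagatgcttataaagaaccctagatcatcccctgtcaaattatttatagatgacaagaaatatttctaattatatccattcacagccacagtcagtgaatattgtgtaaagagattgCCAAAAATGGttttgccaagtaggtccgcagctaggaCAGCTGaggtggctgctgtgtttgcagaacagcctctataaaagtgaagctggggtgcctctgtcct
Both strands were searched, and the motifs cannot overlap each other. CAGCTG was found in 8 of 17 promoters of the skeletal muscle list (47.1%, from 13 genes matched) and in 13.0% of 32851 promoters of the same length. The CArG box was found in 2 of the 17 (11.8%), those of Acta1 and Myh4, and in 1.47% of all. In the basal and myoepithelial list, also searched, CAGCTG was found in 3 of 11 promoters (27.3%) and the CArG box in 0. A gene with more than 1 promoter was counted once for each. These counts describe the sequences and not the binding of a factor.

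Among the 25 protein-coding genes of largest spread with a mean of at least 10 CPM, 24 were highest in WT replicate 2 and 15 belonged to the skeletal muscle list. The others included further sarcomere genes such as Mybpc1, Tcap, Nrap and Xirp2, the calcium release channel gene Ryr1 of the sarcoplasmic reticulum with its partner Trdn, and the glycogen phosphorylase gene Pygm. Pygm stood at 1.07, 118, 1.52 and 1.38 CPM. The exception was Bpifa2, a salivary secretory protein, at 114, 0.833, 35.2 and 3.08 CPM. Of 34 protein-coding genes with at least 5 CPM in some tumour and at most 0.1 CPM in another, 33 were highest in WT replicate 2. Besides Myh7 and Myh8 these were led by Mybpc1, Trdn, Myom2, Myoz1, Myh6, Myot, Ampd1 and Ckmt2, all genes of striated muscle.

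**Figure D4:**
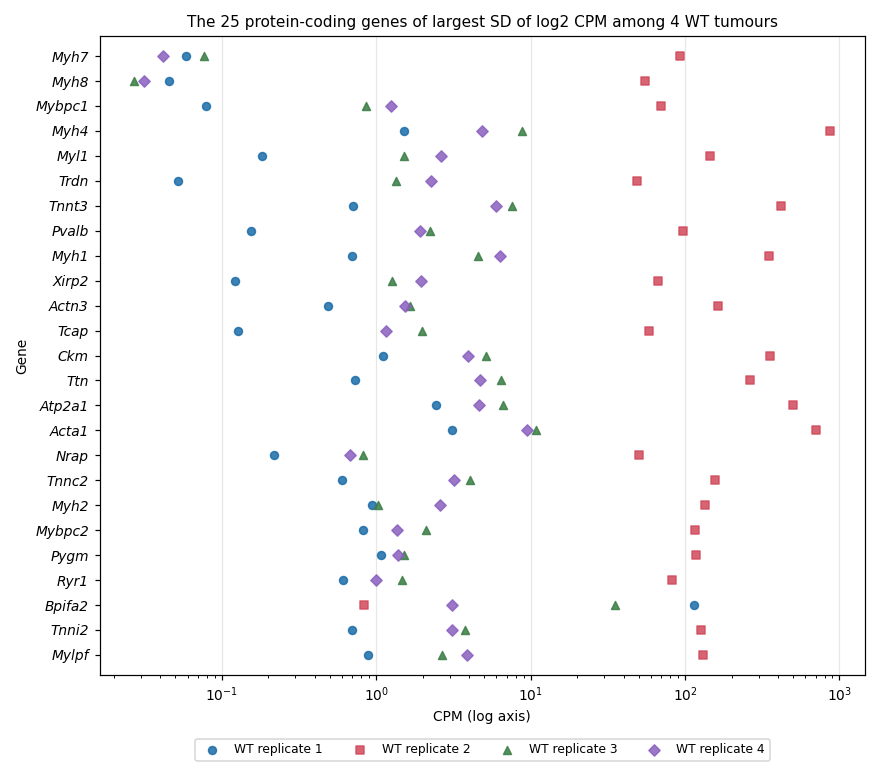
CPM (log axis) of the 25 protein-coding genes of largest SD of log2 CPM among the 4 WT tumours. WT replicate 2 (squares) lay far to the right in 24 of them, and Bpifa2 was the exception with 0.833 CPM there.

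White adipocyte genes were high in the same tumour. Their score was 1.06, 4.01, 1.66 and 1.71, 14 of 17 measured members were highest in WT replicate 2, and 12 of 17 (70.6%, against 6.75% of all genes) differed at least 4-fold. The complement factor D gene Cfd, the adipsin of fat cells, stood at 2.60, 113, 13.8 and 4.56 FPKM, and the fatty acid carrier Fabp4 at 0.804, 20.2, 2.41 and 1.47 FPKM. Car3, a carbonic anhydrase of fat and muscle, had 1.70, 211, 8.86 and 4.79 CPM, and the adipokine gene Retn 0.0753, 5.16, 0.632 and 0.255 CPM. Pnpla2, a triglyceride lipase active in many cells, did not share this order and was lowest in WT replicate 2, with 182, 102, 153 and 138 CPM. Mast cell genes also peaked there, at low levels. Mcpt4, a mast cell protease, stood at 0.0589, 1.60, 0.319 and 0.162 CPM, and none of the 11 mast cell and eosinophil markers reached a mean of 1 CPM. Desmin, Des, a filament protein of all muscle types, had 4.37, 176, 8.64 and 5.93 CPM, and the fatty acid carrier Fabp3, in the milk list but also a muscle gene, 0.324, 9.28, 0.623 and 0.542 CPM. Muscle, fat, mast cell and fibroblast genes, the mitochondrial share and the low luminal keratins therefore moved together in WT replicate 2. The part of muscle and fat tissue in the other levels of that tumour was not tested. Without WT replicate 2, the muscle score still spanned 1.98, lowest in WT replicate 1, and the adipocyte score 0.62.

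With WT replicate 2 left out, other genes had the largest spread. The same rule over the other 3 tumours, an alternative chosen after the data were seen, shared 1 gene, Bpifa2, with the first 25. In FPKM the most abundant of the new set were the alpha-globin genes Hba-a2 and Hba-a1 at means of 131 and 121 and Bglap2 at 92.3. Cep85, a centrosome protein gene, stood at 23.7, 177, 558 and 838 CPM in WT replicates 1 to 4. That is a 35.4-fold span at a mean of 76.3 FPKM, while the steadiest genes, given below, differed by at most 1.10-fold. The osteocalcin genes Bglap and Bglap2, near-identical copies that can share reads, stood at 10.3, 65.4, 90.8 and 5.44 CPM and at 8.88, 60.7, 86.0 and 15.6 CPM. The apolipoprotein gene Apoc1 had 43.1, 34.1, 44.6 and 5.71 CPM, low in WT replicate 4. Apobec2, a muscle-associated member of the cytidine deaminase family, was low in WT replicate 1, with 1.75, 44.3, 27.9 and 21.0 CPM.

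**Figure D5:**
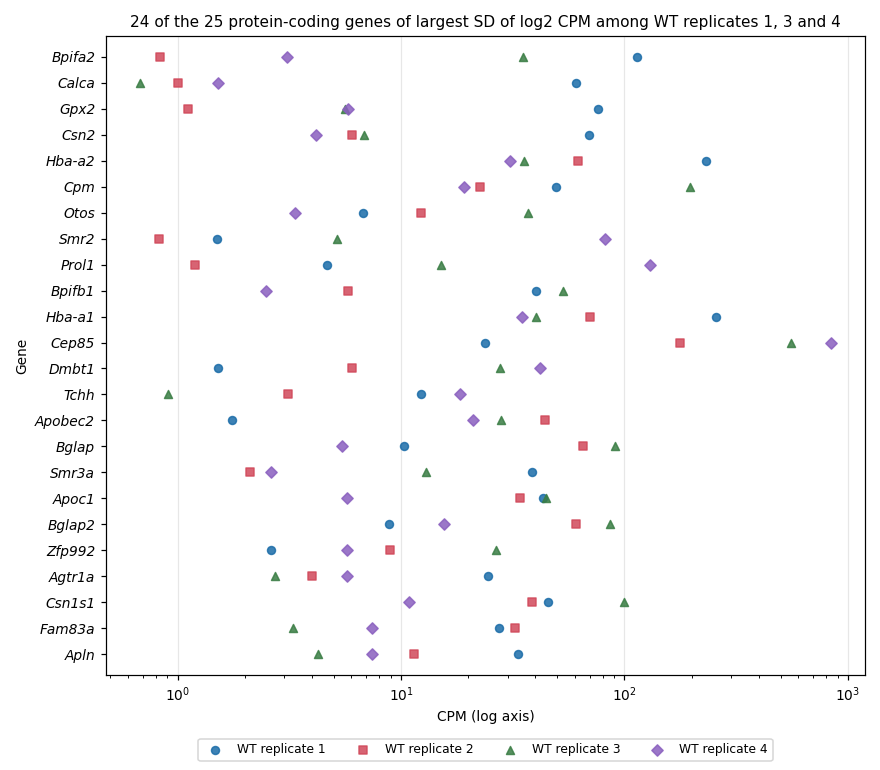
CPM (log axis) of 24 of the 25 protein-coding genes of largest SD of log2 CPM among WT replicates 1, 3 and 4, with WT replicate 2 drawn for comparison. No tumour was highest throughout, and Cep85 reached 838 CPM in WT replicate 4.

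Each of these 3 tumours had its own set of high genes, taken as the 6 with the largest distance above the next tumour. In WT replicate 1 they were Calca, Gpx2, Csn2, Cyp24a1, Hba-a2 and Cited1. Calca, which encodes calcitonin and its gene-related peptide, stood at 60.9, 1.00, 0.682 and 1.52 CPM, and Cyp24a1, the enzyme that inactivates vitamin D, at 27.6, 3.67, 5.24 and 6.82 CPM. Haemoglobin genes were highest in this tumour too, with 258, 70.1, 40.1 and 34.8 CPM for Hba-a1 and 116, 65.0, 26.0 and 26.8 CPM for Hbb-bs. The alpha-globin genes are near-identical, so their reads can be shared. The part of blood in the other levels of WT replicate 1 was not tested.

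In WT replicate 3 the set was Cspg5, Cpm, Tnnt2, Col25a1, Il20rb and Otos. The carboxypeptidase gene Cpm stood at 49.3, 22.5, 197 and 19.2 CPM, Il20rb, a receptor chain for interleukin 20 family cytokines, at 27.1, 33.4, 102 and 25.5 CPM, and the transmembrane collagen gene Col25a1 at 5.99, 12.2, 43.5 and 7.96 CPM. Tnnt2, the cardiac troponin T, was at 6.83, 8.86, 34.4 and 8.29 CPM and so did not follow the skeletal muscle genes of WT replicate 2. In WT replicate 4 the set was Smr2, Prol1, Coro2a, Dmkn, H2-Q6 and Dpp4. The salivary and lacrimal protein genes Smr2 and Prol1 stood at 1.50, 0.827, 5.15 and 81.7 CPM and at 4.65, 1.19, 15.1 and 130 CPM. Coro2a, an actin-binding coronin, had 245, 201, 278 and 788 CPM, and the class Ib gene H2-Q6 328, 200, 124 and 731 CPM.

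Salivary gland markers as a list parted WT replicate 2 from the other tumours, and its members varied in other ways among the rest. Of 11 measured members, 10 (90.9%, against 6.75% of all genes) differed at least 4-fold, and 10 were lowest in WT replicate 2, where the score was -0.23 against 1.88 to 2.35 in the other tumours. The score spanned 2.57, and 0.47 without WT replicate 2. The highest tumour changed from gene to gene, with 4, 0, 5 and 2 members highest in WT replicates 1 to 4. Aqp5, a water channel of secretory epithelium, was the most abundant member at 372, 176, 441 and 297 FPKM. Smr3a stood at 38.6, 2.11, 13.0 and 2.63 CPM, and the Dcpp1 gene at 21.3, 7.49, 51.1 and 12.3 CPM. The salivary amylase gene Amy1 had 32.9, 9.26, 10.9 and 6.31 CPM. The 3 members of the 14 with a mean under 1 CPM were Prb1, Muc19 and Mup4, which did not exceed 0.193, 0.0655 and 0.274 CPM. These 4 genes were chosen for mention after their values were seen. Skin and hair markers were low, with 5 of 18 at 1 FPKM or more, led by the cornified envelope gene Sprr1a at 31.8, 7.21, 20.2 and 21.5 FPKM. Krt77, a keratin of sweat gland ducts, was high in WT replicate 2, with 0.0950, 6.17, 0.287 and 0.160 CPM.

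The 10 steadiest genes with a mean of at least 100 CPM differed by at most 1.10-fold. The kinase gene Stk39 stood at 150, 154, 159 and 155 CPM, the RNA helicase gene Ddx39b at 229, 224, 230 and 216 CPM, and Thrap3, a splicing and mRNA decay factor, at 182, 181, 180 and 192 CPM. Cdk11b, Ppp4c, Cald1, Tor1aip2, Znrf1 and Rbbp7 differed by 1.07- to 1.10-fold between the highest and the lowest tumour. The most abundant of the 10 was Ctsb, the lysosomal protease cathepsin B, at a mean of 103 FPKM and at 590, 630, 639 and 623 CPM.

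The genes targeted elsewhere in the series were expressed in the WT tumours. The complement gene C3 differed 4.17-fold among them, with 169, 83.4, 84.4 and 40.6 CPM. S1pr1, the sphingosine-1-phosphate receptor abundant on endothelium, stood at 6.39, 7.50, 2.70 and 2.86 CPM. As for Plvap and Cdh5, WT replicates 1 and 2 lay above WT replicates 3 and 4.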

How the data were processed

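Total RNA of 4 WT tumours was sequenced, and the WT columns of 2 tables of the whole series were used. The authors deposited a table of raw counts, whole numbers per gene, and a table of FPKM values for 56860 genes. Of the 227440 deposited FPKM values used, 227438 could be recomputed from the count, the deposited gene length and the library total to within 0.0001 of their value, so they add no measurement to the counts and carry no other scaling between tumours. StringTie and the build GRCm39 (mm39) are named per the submitters' processing notes, with no version or role. How reads were aligned and counted, with or without strand, and how those matching several places were treated is not given in the sources used here.

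Counts were scaled with TMM factors (trimmed mean of M values) of edgeR 4.0.16 in R 4.3.3, computed on the 4 WT libraries, and given as CPM. Log2 CPM used a prior count of 2. Genes with a mean of at least 1 CPM were called measured. The common biological coefficient of variation came from edgeR's estimateDisp with an intercept only, tested on simulated data. Means are given ± SD over 4 tumours. With 1 group there was no contrast, and no test and no p-value was computed. The totals of 327.1 to 484.0 M put the level of 3 counts at 0.00573 to 0.00982 CPM, so counting error is small beside the spread between tumours except for genes near that level. It covers counting only, since no molecular identifiers are described.

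Gene types came from RefSeq and GENCODE tables of GRCm38 for 50578 of the 56860 names, by symbol or synonym. A total of 61 gene lists with 1108 entries were described by counts, medians and scores. The tumours, the gene lists and the rules were chosen with earlier results of these data known. Genes were named as the 25 of highest mean FPKM and the 25 of largest SD of log2 CPM (at least 10 CPM, protein-coding, without ribosomal, mitochondrial and predicted genes), the 10 steadiest at 100 CPM or more, the 6 highest above the other tumours in each tumour, up to 10 genes present in 1 tumour and nearly absent in another, and of each list up to 4 of highest FPKM and 2 of largest SD, with 3 mitochondrial, 3 ribosomal and 5 noncoding genes and with C3 and S1pr1. A few genes that these rules named are not reported here. Other scalings (library totals, DESeq2 1.42.0 size factors), filters, folds, priors and leaving out each tumour were tried.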

Additional observations from a re-analysis of the deposited data

Results flagged for a closer look

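In each group of 4 tumours, a tumour was marked when its gap to the nearest other tumour was, as a share of the whole range of log2 CPM, above Dixon's critical value for 4 samples. Of 185 genes named in the text, 17 were marked, and of 38 list scores 1. By chance about 1 in 20 groups would be marked, and genes of 1 tumour share their library. That rate does not hold for the many genes here that were named because their spread or their distance between tumours was large.

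WT replicate 2 was marked as the highest in 8 of these genes. The mark rests on the share of the range and not on the size of the gap. They were the striated muscle genes Myh7 at 92.0 CPM, Myh8 at 54.7 CPM, Myh6 at 23.1 CPM, Pygm at 118 CPM and Mb at 55.2 CPM, the collagen gene Col3a1 at 1056 CPM, the cell cycle gene Ube2c at 221 CPM and the actin-binding gene Cald1 at 474 CPM. Cald1 is among the steadiest genes, and its other tumours lay at 444 to 448 CPM. Ptma was lowest in WT replicate 2 at 1933 CPM.

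In WT replicate 3, Cspg5, a neural proteoglycan gene, was highest at 34.5 CPM and Tnnt2 at 34.4 CPM, while Pgr was lowest at 1.94 CPM. The score of MHC class II presentation was lowest there at 4.01, against 4.77 to 4.87 in the other tumours. In WT replicate 4, Cd8a was highest at 3.25 CPM, and Tcf7, a T cell transcription factor that other cells also express, was lowest at 11.2 CPM. Apoc1 and Car9 were also lowest in WT replicate 4, at 5.71 and 24.3 CPM. Pik3ca was lowest in WT replicate 1 at 30.9 CPM.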

How the results depend on the processing

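The number of genes at or above 1 FPKM stayed between 13870 and 17809 under every alternative run. The number at or above 100 FPKM was 1121 on the TPM scale in place of 655. The share of the 100 most abundant genes, 45.3% on average, was 37.1% without mitochondrially encoded genes and 32.4% without these, predicted genes and pseudogenes. The count of genes that differed at least 4-fold, 1164, rose to 3567 with edgeR's filterByExpr, 3494 at 0.1 CPM and 8788 with no filter, and fell to 280 at 10 CPM. It was 5473 for 2-fold and 379 for 8-fold differences, and it ranged from 539 (without WT replicate 2) to 994 when 1 tumour was left out, with fewer tumours by construction. Without the members of 5 lists of other tissues, an alternative chosen after the data were seen, it was 1117. The biological coefficient of variation was 0.423 with filterByExpr and 0.296 at 10 CPM, and 0.313 (without WT replicate 2) to 0.405 when 1 tumour was left out. Lists whose score spanned over 1 numbered 8 on the log2(FPKM + 1) scale in place of 19, and 9 (without WT replicate 2) to 16 when 1 tumour was left out, with 11 without WT replicate 3. Leaving out 1 tumour gave ranges of 1.98 to 7.95 for skeletal muscle, 0.616 to 2.95 for white adipocyte and 0.469 to 2.58 for salivary gland markers, the lowest in each case without WT replicate 2. Of the 25 genes of largest spread, 16 were shared when ranked by log2(FPKM + 1) and 1 without WT replicate 2. Scaling by library totals moved the median gene by -0.10 in WT replicate 1 and 0.11 in WT replicate 2 (log2). For single genes, 1523 of 1632 recomputed ratios stayed on the same side of 4-fold. With 1 tumour left out a ratio cannot rise, apart from small changes of scaling. Of 247 recomputed FPKM levels, 197 moved by less than 1 SD and 50 moved by more. A median, or a mean with 1 of the 4 tumours left out, cannot move by 1 SD. All 50 therefore belong to the TPM scale or the principal transcript length, and the 197 say little about stability. Of 521 recomputed list ranges, 458 moved by less than 1 SD. The cause of these changes was not tested. No paired analysis was possible because only 1 group was used and the labels give no replicate numbers.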
